A study of Mus musculus with 14 samples.

Results

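The genes described here are 34 autophagy genes of the mouse, a list fixed by name and covering the pathway from the initiating kinases to the lysosome. They are 34 of the 21883 protein-coding genes on chromosomes 1 to 19, X and Y. A region of the deposited tables was counted for a gene when it overlapped the gene body, or the 2500 bp on either side of it, by at least 1 bp (build mm10). The rule uses no measured value.

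Autophagy wraps parts of the cytoplasm in a double membrane, the autophagosome, and delivers them to lysosomes. The Ulk kinases start the process, the class III phosphatidylinositol 3-kinase marks the growing membrane with lipid, and a pair of ubiquitin-like conjugation systems attach proteins of the Atg8 family to it. Cargo receptors link cargo to these proteins. In cardiomyocytes the pathway clears damaged mitochondria and protein aggregates, and its activity shifts under pressure load and with nutrient supply.

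Chromatin was immunoprecipitated and sequenced (ChIP-seq) from cells enriched for cardiomyocytes, taken from C57BL/6J mice 1 week after transverse aortic constriction (TAC), a surgical narrowing of the aorta that loads the left heart, and from sham mice, which the labels give as untreated. The antibodies recognised G9a, a histone methyltransferase, H3K9me2, the repressive mark it places, and H3K27me3, the repressive mark of the Polycomb complexes. There were 2 biological replicates per antibody in TAC hearts and 2 in sham hearts, and 1 input library per condition, not used here. The sources used here do not give sex, age or the number of animals per library, and all mice were of 1 strain with no genetic change named. The cells were enriched, not pure, and in bulk chromatin fewer cells of a type and less signal per cell cannot be told apart.

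The authors' deposited table for an antibody holds regions called different between the conditions, each with a first pair and a second pair of whole-number values and a -log10 p. The tables do not say which pair is TAC and which is sham, nor which replicate stands where, so every result below is given by pair, and the same pair order was assumed in the 3 tables. All values per library and all values called deposited come from the authors' deposited table of the antibody named in the sentence or paragraph. A log2 difference compares the means of the pairs after adding a pseudocount of 1, the second divided by the first, and is positive where the second pair was higher. It understates the change of low regions. A region is called separated when the lowest value of the higher pair exceeded the highest of the other.

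Annotated start sites were known for 28 of the 34 genes, from RefSeq promoter windows of 250 bases before to 50 after a start (GRCm38.p6). Of the 32 windows, 2 were touched by a listed region. The share over the windows of all genes is not given here, so this count cannot be called low or high. The 2 windows are shown here because a reader can see from them which bases of a promoter lay inside a region, in capitals, 5′ to 3′. Foxo1 (chr3:52268087-52268386, plus strand) had 164 bases inside a G9a region, and the outer of 2 Rab7 windows (chr6:88045221-88045520, minus strand) had 170 bases inside an H3K9me2 region.
Foxo1: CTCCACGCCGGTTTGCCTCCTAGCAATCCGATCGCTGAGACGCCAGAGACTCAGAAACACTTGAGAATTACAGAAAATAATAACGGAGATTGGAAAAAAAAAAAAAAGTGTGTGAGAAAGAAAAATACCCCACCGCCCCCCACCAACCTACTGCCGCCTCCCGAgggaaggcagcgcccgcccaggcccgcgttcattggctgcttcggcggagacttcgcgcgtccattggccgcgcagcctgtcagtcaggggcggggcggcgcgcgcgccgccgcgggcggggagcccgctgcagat
Rab7: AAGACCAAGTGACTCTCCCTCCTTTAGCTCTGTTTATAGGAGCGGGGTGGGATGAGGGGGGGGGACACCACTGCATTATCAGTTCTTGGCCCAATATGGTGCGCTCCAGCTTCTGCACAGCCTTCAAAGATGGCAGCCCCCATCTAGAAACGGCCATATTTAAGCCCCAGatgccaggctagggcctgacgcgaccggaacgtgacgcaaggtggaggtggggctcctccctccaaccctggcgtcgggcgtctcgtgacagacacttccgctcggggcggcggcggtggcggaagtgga

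The promoter of Lamp1 (chr8:13158911-13159210, plus strand) is shown as a contrast, since Lamp1 had no listed region in any table. Its capitals mark 4 copies of CACGTG, the core of the element bound by TFEB at lysosomal and autophagy genes, a palindrome that reads alike on both strands.
Lamp1: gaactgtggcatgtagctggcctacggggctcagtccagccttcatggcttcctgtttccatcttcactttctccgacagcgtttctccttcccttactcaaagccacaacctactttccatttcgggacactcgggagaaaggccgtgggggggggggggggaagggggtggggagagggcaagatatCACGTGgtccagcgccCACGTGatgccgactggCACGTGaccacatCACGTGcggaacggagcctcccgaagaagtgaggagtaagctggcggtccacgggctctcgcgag

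CACGTG occurred in 6 of the 32 autophagy promoter windows (18.8%), those of Atg3, Atg5, Atg7, Atg14, Bnip3 and Lamp1, against 7.84% of 21262 windows of all protein-coding genes. The forkhead motif GTAAACA, searched on both strands and sharing no bases with CACGTG, occurred in 0 of the 32, against 3.01% of all windows. The autophagy windows had a median of 21 CpG dinucleotides and 60.8% G plus C, against 13 and 56.3% over all windows. A match describes letters in a window and says nothing about binding.

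Listed regions were frequent at autophagy genes for G9a, less frequent for H3K9me2 and rare for H3K27me3. For G9a, 32 of the 34 genes had a region of either direction (94.1%, against 84.0% of all protein-coding genes). A G9a region higher in the first pair stood at 31 (91.2%), against 76.7% of all genes, and one higher in the second pair at 13 (38.2%), against 55.5% of all genes. For H3K9me2, 11 genes (32.4%) had a first-pair region, against 48.2% of all genes, and 10 (29.4%) had a second-pair region, against 38.8%. For H3K27me3, 8 genes (23.5%) had a first-pair region, against 58.3% of all genes, and 5 (14.7%) had a second-pair region, against 50.5%. The shares of autophagy genes thus lay below those of all genes in 5 of these 6 counts, and above in the G9a first-pair count.

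Counting regions per length of sequence kept the order of the antibodies. By this measure autophagy genes lay below all genes in every density, that of first-pair G9a regions included. The windows of the 34 genes held 181 G9a, 66 H3K9me2 and 42 H3K27me3 regions. Per 100 kb there were 7.75 first-pair G9a regions at autophagy genes, against 8.38 over the windows of all protein-coding genes, and 1.48 second-pair G9a regions against 6.20. For H3K9me2 the densities were 2.14 first-pair and 1.22 second-pair regions per 100 kb, against 4.20 and 3.09 over all windows. For H3K27me3 they were 1.53 and 0.61, against 8.98 and 8.21. Autophagy genes were longer than most, with a median body of 32.3 kb against 17.2 kb, so their count of genes with a region and their density are given side by side, and no test was made of either.

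**Figure D1:**
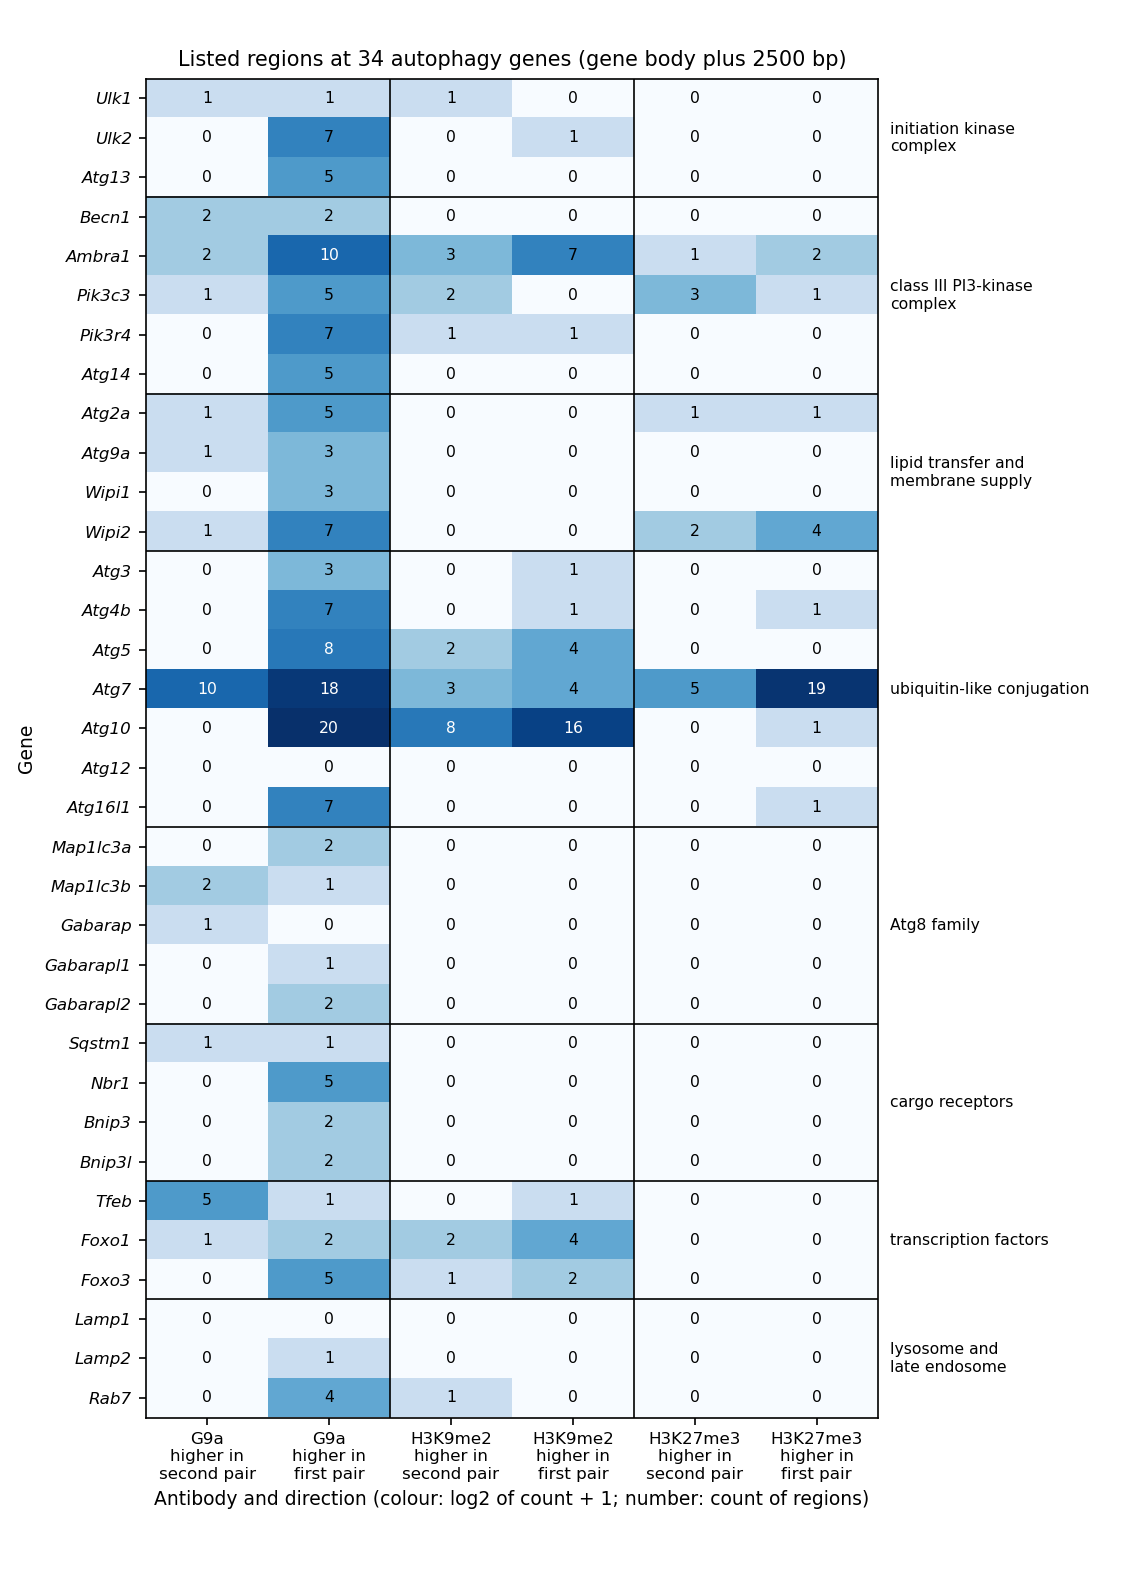
The grid gives the number of listed regions (printed in each cell, with darker blue for more, on a log2 scale) for each of the 34 genes, in rows grouped by role, and for each antibody and direction, in columns. The first-pair G9a column is filled for 31 genes, the H3K27me3 columns are at 0 for most genes, and Atg7 and Atg10 hold the highest counts.

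The regions were unevenly spread over the genes. Atg7, with 28 G9a, 7 H3K9me2 and 24 H3K27me3 regions, held 57.1% of all H3K27me3 regions of the list in 11.3% of its sequence. Atg10, the longest of the genes at 289.4 kb, held 24 of the 66 H3K9me2 regions (36.4%) in 15.0% of the sequence. Of the G9a regions these 2 genes held 28 and 20 of 181. Lamp1 and Atg12, a ubiquitin-like protein joined to Atg5, had no region in any table; 8.83% of all genes had none.

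The libraries differed in ways that bear on G9a. Library 1 of the second pair, the first of the 2 values listed for that pair, was at 0 in 62 of the 181 G9a regions at autophagy genes (34.3%), against 9.34% of all G9a regions. Within first-pair G9a regions alone these shares were 40.1% and 16.7%, and within second-pair ones 3.45% and 0.13%. The other 3 G9a libraries were at 0 in at most 2 of the 181. Summed over these 181 regions, of which 152 were listed as higher in the first pair, G9a values came to 3955 and 16435 in the second pair. In the first pair they came to 17389 and 19835. Over all G9a regions of the table the sums were 41922229 and 48327896 in the second pair, against 36881071 and 44672116 in the first. By sum, library 1 of the second pair was thus not the lowest over the whole table. By median over all G9a regions it was the lowest, at 52, against 90 for library 2 of that pair. The medians of the first pair were 77 and 94. It was also at 0 most often over the whole table, in 9.34% of regions, against 0.545%, 1.4% and 0.163% in the others. Without library 1 of the second pair, 135 of the 152 first-pair G9a regions kept their direction (88.8%, against 90.1% of all first-pair G9a regions). Their median log2 difference was then -0.50 in place of -1.25. Over all first-pair G9a regions of the table these medians were -0.62 and -1.08. All 29 second-pair G9a regions kept their direction without that library, against 96.1% of all second-pair G9a regions. Their median became 1.54 in place of 1.17, and over all second-pair G9a regions it became 1.08 in place of 1.01. In most of these 29 regions library 1 was the lower of its pair, so leaving it out could hardly turn them. Without library 2 of the second pair instead, some turned negative, among them regions at Ambra1, Foxo1, Map1lc3b and Sqstm1. Others stayed positive, that of Ulk1 among them. Over the regions at autophagy genes, the H3K9me2 libraries summed to 4315 and 4891 in the second pair against 5468 and 5707 in the first. For H3K27me3 the sums were 6476 and 4875 against 6053 and 6507. No source used here gives sequencing depths, and these sums cover listed regions only.

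**Figure D2:**
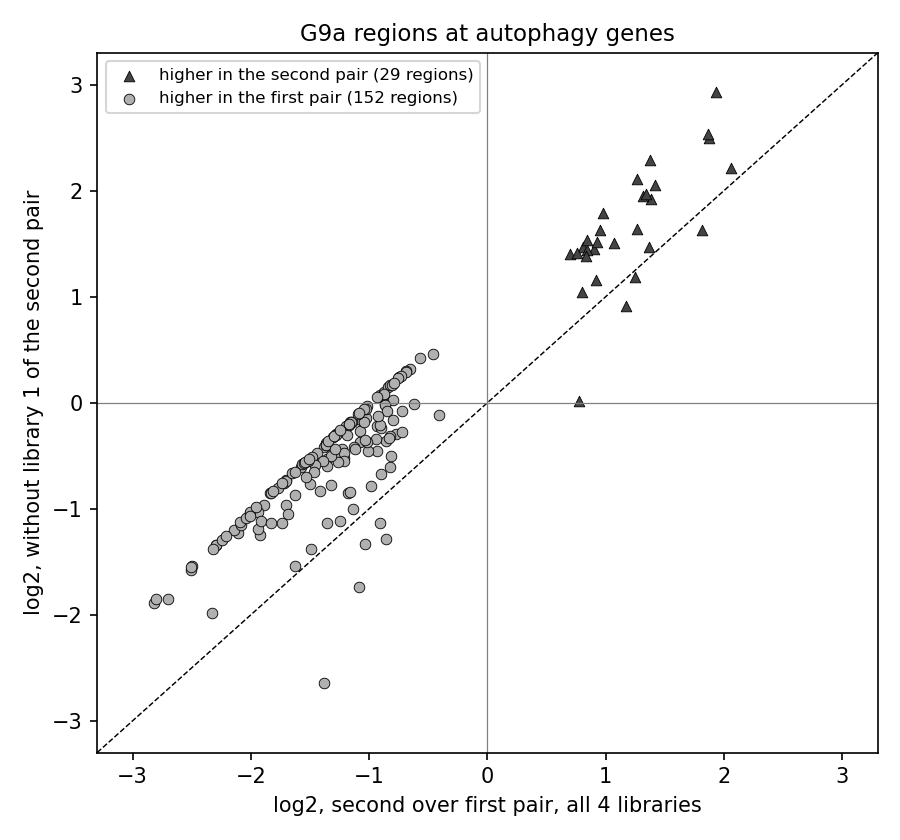
Each point is a G9a region at an autophagy gene, with its log2 difference from all 4 libraries on the x axis and without library 1 of the second pair on the y axis; triangles are the 29 regions higher in the second pair, circles the 152 higher in the first, and the dashed line marks equality. First-pair regions lie mostly above the line, nearer to 0, and 17 of them no longer lie below 0.

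The spread between the 2 libraries of a pair was large beside most differences. Of the G9a regions at autophagy genes, 102 of 181 were separated, 56.4% against 61.3% of all G9a regions. For H3K9me2 it was 47 of 66 (71.2% against 67.9%), and for H3K27me3 29 of 42 (69.0% against 69.2%). Among second-pair G9a regions 10 of 29 were separated (34.5%), against 63.1% of all second-pair G9a regions, and among first-pair ones 92 of 152 (60.5%, against 59.8%). In a limma fit on log2(value + 1) over all regions of each table, no region at an autophagy gene passed a Benjamini-Hochberg adjusted p of 0.05, and the smallest adjusted p was 0.471 for G9a, 0.383 for H3K9me2 and 0.218 for H3K27me3 (limma). At an unadjusted limma p under 0.05 there were 14 G9a regions (7.73%, against 6.70% of all G9a regions), 5 for H3K9me2 (7.58% against 11.8%) and 6 for H3K27me3 (14.3% against 18.8%). Over the whole tables, limma called 0 G9a, 1 H3K9me2 (0.000408%) and 0 H3K27me3 regions at the adjusted threshold. An exact permutation test of 1 region with 2 libraries per pair cannot go below p = 0.333, two-sided. The words higher and lower below therefore follow the authors' own call and deposited p, and each region's 4 values are given so that the spread can be read. Of the 78 leading regions, those with the smallest deposited p per gene, table and direction, 65 had a log2 difference that moved by more than 1.5 times when 1 of the 4 libraries was left out. The 13 that did not were G9a at Ulk1 (second pair), Atg2a and Pik3c3 (first pair), H3K9me2 at Ulk1 and Foxo1 (second pair), Ulk2 and Atg3 (first pair) and Atg10 (both), and H3K27me3 at Atg2a, Atg4b, Atg7 and Atg10 (first pair).

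Ulk1 and Ulk2 encode the related kinases that start autophagosome formation. At Ulk1 (chromosome 5, 110784489 to 110810120, minus strand), an upstream region was higher in the second pair for both G9a and H3K9me2. Its G9a region (110811501 to 110812300) had 264 and 206 in the second pair, against 36 and 96 in the first, a log2 difference of 1.82. The H3K9me2 region began at the same base (110811501 to 110812200) and had 142 and 173 in the second pair, against 32 and 67 in the first, a log2 difference of 1.65. Both regions were separated and moved by less than 1.5 times without any 1 library. They lay 1420 bp upstream of the annotated start, in the window of no other protein-coding gene. Inside Ulk1, a short G9a region was higher in the first pair, with 0 and 27 in the second pair, against 68 and 64 in the first.

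Ulk2 (chromosome 11, 61775598 to 61855334) had 7 G9a regions, all higher in the first pair. The leading one had 5 and 54 in the second pair, against 314 and 81 in the first, the smallest deposited p of any G9a region at an autophagy gene (-log10 p of 29.7). Its log2 difference was -2.70, which became -1.43 without library 1 of the first pair and -1.85 without library 1 of the second. The single H3K9me2 region of Ulk2 was also higher in the first pair, with 21 and 14 in the second pair, against 72 and 66 in the first. Atg13, the scaffold that joins the kinase to its partners, had 5 first-pair G9a regions. That with the smallest p lay 709 bp upstream of its start, in a window shared with Harbi1, and had 20 and 105 in the second pair, against 156 and 256 in the first.

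Pik3c3, the catalytic subunit of the class III phosphatidylinositol 3-kinase (chromosome 18, 30265615 to 30348126), was the gene at which all 3 tables listed one spot as higher in the second pair. The G9a region (30267851 to 30268600) had 175 and 159 in the second pair, against 34 and 105 in the first, a log2 difference of 1.25. The H3K9me2 region (30268201 to 30268850) had 145 and 110 in the second pair, against 1 and 90 in the first (1.47). The H3K27me3 region over them (30266901 to 30268650) had 369 and 443 in the second pair, against 103 and 357 in the first (0.82). In each of these 3 regions the values of the pairs were separated, but library 1 of the first pair was the lowest in each. Without it the differences were 0.66 for G9a, 0.50 for H3K9me2 and 0.19 for H3K27me3. Of the 29 second-pair G9a regions at autophagy genes this was the 1 that overlapped a second-pair region in both other tables, against 5.71% of all second-pair G9a regions.

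H3K27me3 at Pik3c3 extended to both sides of that spot. The leading H3K27me3 region ended 115 bp outside the gene (30264201 to 30265500) and had 436 and 285 in the second pair, against 83 and 274 in the first, a log2 difference of 1.01 that was 0.39 without library 1 of the first pair. A wider region further in (30269051 to 30271750) had 802 and 545 in the second pair, against 431 and 572 in the first, with overlapping values. One further out went the other way, with 141 and 39 in the second pair, against 185 and 98 in the first, also with overlapping values. Deeper in the gene, G9a was higher in the first pair in 5 regions, the leading one with 19 and 34 in the second pair, against 183 and 91 in the first. The strand of Pik3c3 was not in the promoter table used here, so these positions are not placed relative to its start.

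The other subunits of this kinase complex had mostly first-pair G9a regions. Pik3r4, the regulatory kinase-like subunit, had 7 of them, and the leading one, in a window shared with Col6a6, had 0 and 30 in the second pair, against 156 and 65 in the first. At 1406 bp inside its start, the G9a and H3K9me2 tables gave opposite directions. G9a had 0 and 168 in the second pair, against 101 and 184 in the first, and H3K9me2 had 112 and 45 in the second pair, against 3 and 35 in the first. The H3K9me2 region was separated, with a log2 difference of 1.99 that was 1.14 without library 1 of the first pair and 1.20 without library 1 of the second. The G9a region was not separated, and its difference of -0.76 became 0.24 without library 1 of the second pair. A second H3K9me2 region of Pik3r4, deeper in the gene, was higher in the first pair with 14 and 40 in the second pair, against 57 and 60 in the first. Atg14, which directs the complex to autophagosome formation, had 5 first-pair G9a regions, led by one with 1 and 109 in the second pair, against 162 and 219 in the first.

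Becn1, the beclin subunit of the complex, had 2 G9a regions of each direction and no region in the other tables. Its leading first-pair region, in a window shared with Cntd1, had 20 and 115 in the second pair, against 236 and 186 in the first. The second-pair region with the smallest p lay 1165 bp outside the gene, with 62 and 215 in the second pair, against 54 and 56 in the first. It was separated, and its log2 difference was 1.32, or 0.17 without library 2 of the second pair.

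Ambra1, a regulator of beclin (chromosome 2, 91730138 to 91918849), held 25 regions over the 3 tables. Near 174 kb from its annotated 5′ end, one spot was higher in the first pair in all 3. There G9a (91903651 to 91904150) had 2 and 48 in the second pair, against 25 and 173 in the first, with overlapping values and a difference of 0 without library 2 of the first pair. H3K9me2 (91903951 to 91904450) had 37 and 24 in the second pair, against 121 and 57 in the first, and H3K27me3 (91903951 to 91904300) had 8 and 0 against 65 and 101, both separated. Such a spot was 1 of the 152 first-pair G9a regions at autophagy genes, against 4.70% of all first-pair G9a regions.

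Elsewhere in Ambra1 the tables did not follow each other. The leading first-pair G9a region had 6 and 127 in the second pair, against 255 and 244 in the first, and the leading second-pair one had 0 and 277 against 1 and 70, a difference that became -5.19 without library 2 of the second pair. H3K9me2 was higher in the second pair in 3 neighbouring regions, led by one with 128 and 197 against 115 and 64 (log2 difference 0.85, or 0.50 without library 2 of the first pair), which overlapped a G9a region of the opposite direction. Outside the far end of the gene, in a window shared with Chrm4, a receptor gene, H3K27me3 had 261 and 189 in the second pair, against 176 and 137 in the first.

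**Figure D3:**
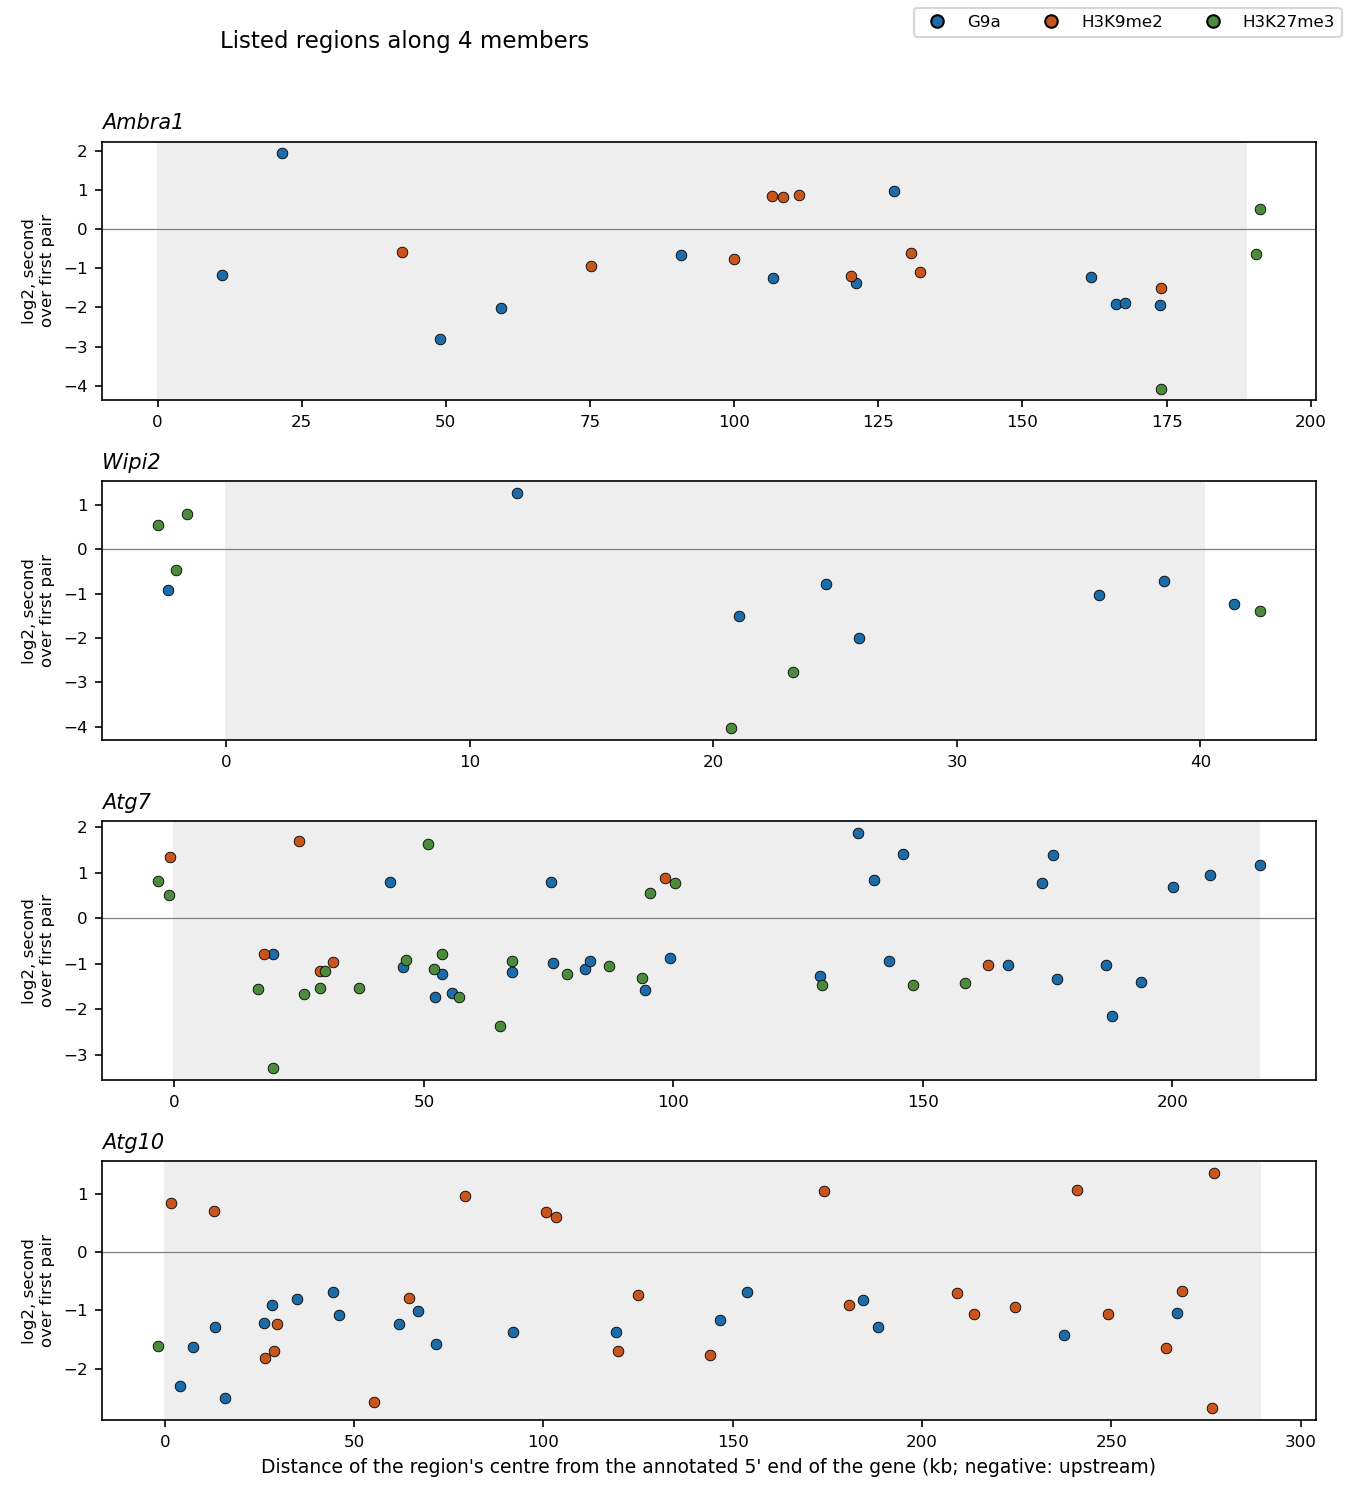
Each point is a listed region, placed by the distance of its centre from the annotated 5′ end of the gene (x axis, kb, upstream negative; grey, gene body) and by its log2 difference, second over first pair (y axis), for G9a (blue), H3K9me2 (orange) and H3K27me3 (green) at Ambra1, Wipi2, Atg7 and Atg10. H3K27me3 points (green) lie above 0 just outside the 5′ end of Atg7 and mostly below 0 inside it; 1 Atg7 region at which the second pair was listed at 0 is not drawn.

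Of the 4 genes of membrane supply, 3 had G9a regions of both directions and 2 had H3K27me3 regions. Wipi2, a lipid-binding protein of the growing membrane (chromosome 5, 142629533 to 142669672), had second-pair and first-pair H3K27me3 regions side by side upstream. The first, 2384 bp upstream of its start, had 491 and 566 in the second pair, against 422 and 297 in the first, a log2 difference of 0.55 that was 0.32 without library 2 of the first pair. The next had 94 and 127 in the second pair, against 175 and 133 in the first, and the one after it 96 and 64 against 41 and 51. All 3 were separated, so that the direction turned and turned back within 2 kb of sequence.

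Inside Wipi2, H3K27me3 was near 0 in the second pair in short regions. The leading one (142650101 to 142650450) had 8 and 0 in the second pair, against 54 and 109 in the first, and a second one had 1 and 22 against 102 and 66. A first-pair G9a region overlapped the leading one, with 0 and 91 in the second pair, against 80 and 183 in the first. Of the 7 first-pair G9a regions of Wipi2 the leading one had 4 and 108 in the second pair, against 188 and 268 in the first, and its 1 second-pair region had 54 and 100 against 17 and 46. Wipi1, a related protein, had 3 first-pair G9a regions, led by one with 0 and 54 in the second pair, against 149 and 67 in the first.

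Atg2a, a lipid transfer protein, had its leading first-pair G9a region inside the gene, with 124 and 174 in the second pair, against 373 and 392 in the first (log2 difference -1.35). The difference was -1.13 without library 1 of the second pair. The second-pair G9a region of Atg2a had overlapping values, 66 and 182 against 109 and 23, and a difference of 0 without library 2 of the second pair. Downstream of the gene, neighbouring H3K27me3 regions had 171 and 149 in the second pair, against 43 and 177 in the first, and 100 and 80 against 127 and 171. The difference of the first of these was -0.14 without library 1 of the first pair. Atg9a, the transmembrane lipid scramblase of the pathway, had neighbouring G9a regions of opposite direction. One had 101 and 127 in the second pair, against 0 and 53 in the first (log2 difference 2.06, or 1.09 without library 1 of the first pair, which is at 0). The next had 0 and 85 against 176 and 128.

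The conjugation genes held the most regions, because Atg7 and Atg10 belong to them. Atg7 (chromosome 6, 114643127 to 114860604) encodes the activating enzyme that both conjugation systems need. Outside its annotated 5′ end a block of H3K27me3 of 3450 bp (114638001 to 114641450) had 1424 and 829 in the second pair, against 632 and 646 in the first, a log2 difference of 0.82 that was 0.38 without library 1 of the second pair. It had the smallest p among second-pair H3K27me3 regions at autophagy genes (-log10 p of 29.5). Closer to the gene, 577 bp outside it, an H3K9me2 region was higher in the second pair, with 85 and 111 against 20 and 56. It overlapped a small second-pair H3K27me3 region with 142 and 102 against 40 and 129.

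Inside Atg7 the direction of H3K27me3 was mostly the opposite, with 19 first-pair regions and 3 of the 5 second-pair ones. The leading first-pair region (114806001 to 114806550) is listed at 0 in both second-pair libraries, against 134 and 116 in the first pair, so no fold is given. Another had 24 and 4 in the second pair, against 132 and 161 in the first. The leading first-pair H3K9me2 region of Atg7 had 33 and 167 in the second pair, against 217 and 176 in the first. Its G9a regions were 18 first-pair ones, led by 32 and 102 in the second pair, against 195 and 256 in the first, at a spot where H3K27me3 was also lower in the second pair, with 138 and 174 against 260 and 415. The leading of 10 second-pair G9a regions had 61 and 164 against 25 and 60. The promoter window of Atg7 in the table lies 28.0 kb inside the annotated gene, and thus marks a start other than its outer end.

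Atg10, which transfers Atg12 to Atg5 (chromosome 13, 90935348 to 91224725, minus strand), had 20 G9a regions, all higher in the first pair, led by one with 1 and 109 in the second pair, against 218 and 114 in the first. For H3K9me2 it had 16 first-pair and 8 second-pair regions. The regions with the smallest p of each direction stood side by side. The first-pair one (90947901 to 90948600) had 21 and 23 in the second pair, against 116 and 177 in the first, a log2 difference of -2.68. The second-pair one (90947151 to 90947850) had 131 and 130 in the second pair, against 41 and 60 in the first (1.35). In both regions the libraries of a pair lay close together and the pairs were separated. Upstream of the gene, H3K27me3 was higher in the first pair, with 52 and 57 in the second pair, against 140 and 198 in the first.

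The other conjugation genes had first-pair G9a regions except Atg12. Atg5, the partner of Atg12, had 8, led by one with 7 and 90 in the second pair, against 182 and 243 in the first. Its H3K9me2 regions went both ways, with 29 and 57 in the second pair, against 61 and 162 in the first beyond the far end, and 136 and 51 against 53 and 6 inside the gene, where the values overlapped. Atg3, the enzyme that transfers Atg8 proteins to lipid, had a leading G9a region with 1 and 64 in the second pair, against 213 and 103 in the first, and an H3K9me2 region with 37 and 45 against 108 and 79.

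Atg4b, the protease that processes Atg8 proteins, was higher in the first pair in every region listed for it, 7 for G9a and 1 each for H3K9me2 and H3K27me3. The H3K27me3 region (93782801 to 93783250 on chromosome 1) had 8 and 3 in the second pair, against 102 and 110 in the first, a log2 difference of -4.04. H3K9me2 had 24 and 18 in the second pair, against 32 and 133 in the first (-1.92, or -0.58 without library 2 of the first pair). The leading G9a region had 12 and 83 against 194 and 169 (-1.91, or -1.12 without library 1 of the second pair). The H3K27me3 difference moved by less than 1.5 times without any 1 library. These 3 regions lay at different places in the gene. Atg16l1, which places the conjugation complex on membranes, had 7 first-pair G9a regions, led by 0 and 28 in the second pair, against 87 and 58 in the first. Its H3K27me3 region outside the gene had the smallest difference of all leading regions, 239 and 153 against 274 and 241 (-0.39, or -0.11 without library 2 of the second pair).

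**Figure D4:**
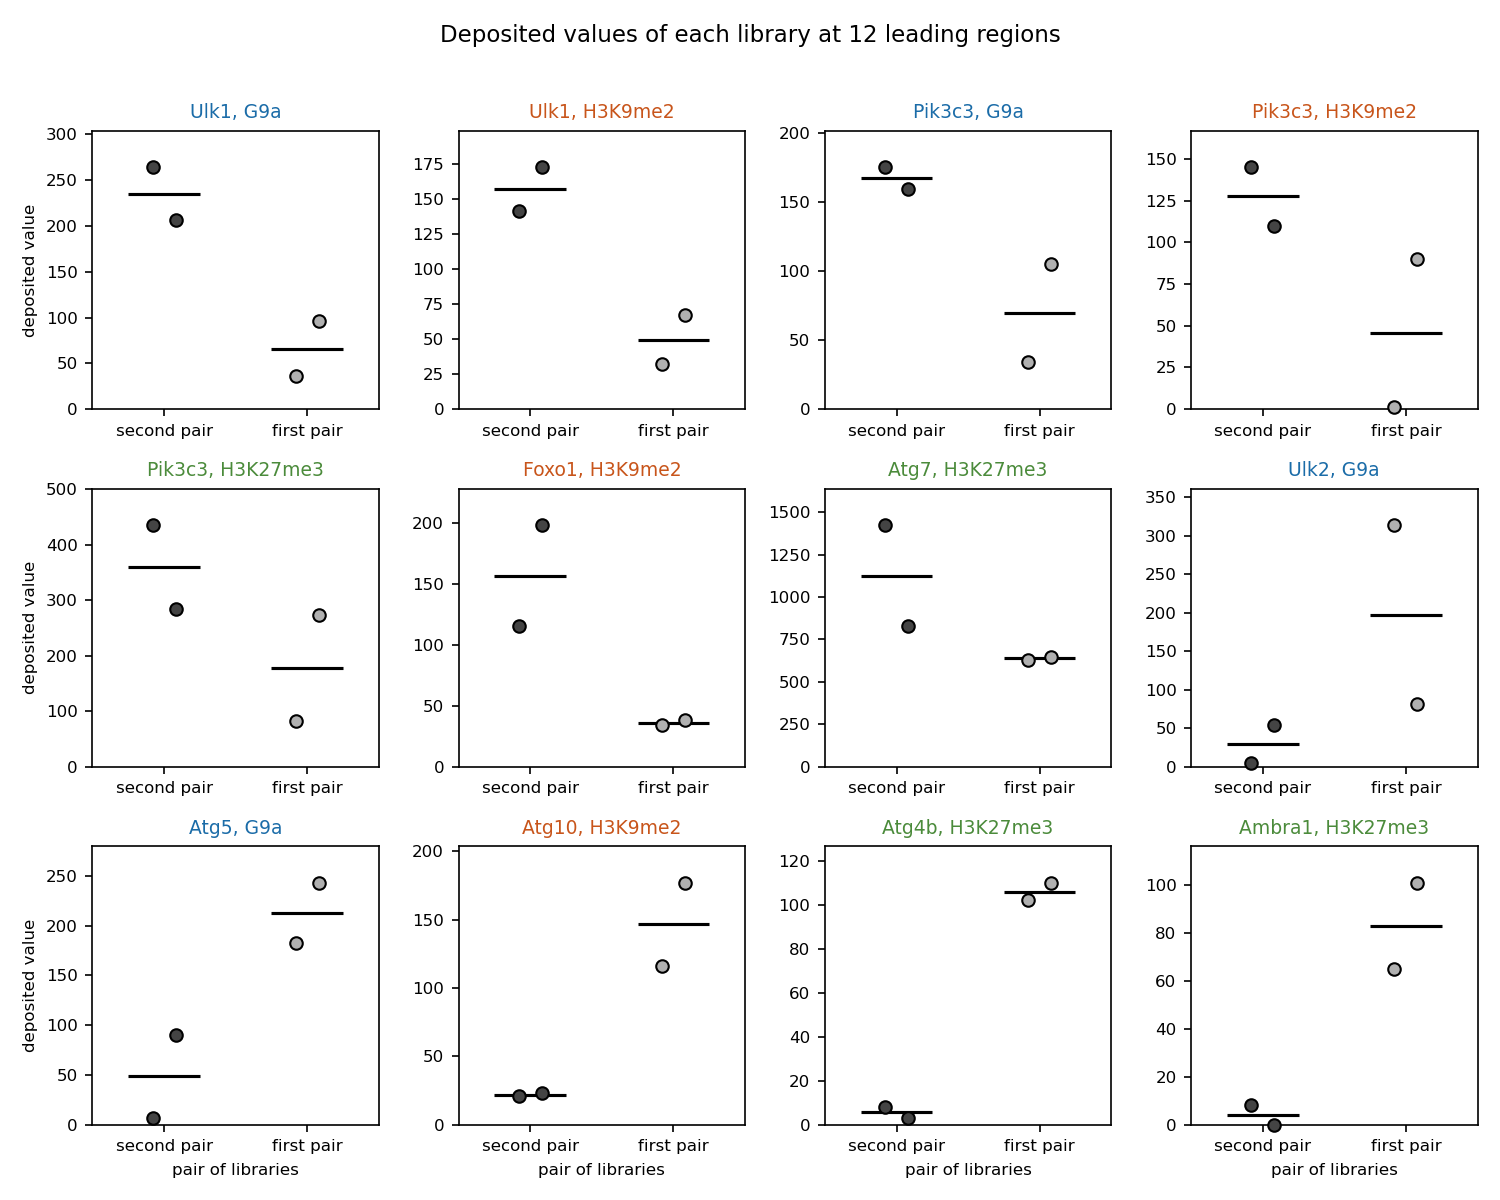
Each panel shows the deposited value of each library (points) and the mean of each pair (bars) at a leading region, for the gene and antibody named above it, with the second pair on the left and the first on the right; each y axis starts at 0. At Ulk1 the 2 second-pair G9a values of 264 and 206 lie above both first-pair values, and at Atg4b the second-pair H3K27me3 values of 8 and 3 lie below 102 and 110.

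The Atg8 family, whose lipid-linked members line the autophagosome, had regions in the G9a table alone. Map1lc3b, which encodes the widely used autophagosome marker LC3B, had 2 second-pair regions with overlapping values and 1 first-pair region. The leading second-pair one had 68 and 187 in the second pair, against 63 and 79 in the first, with a difference of -0.06 without library 2 of the second pair. The first-pair one, in a window shared with Zcchc14, had 2 and 157 against 168 and 193, a log2 difference of -1.17 that was -0.20 without library 1 of the second pair. Map1lc3a had 2 first-pair regions with overlapping values outside the gene, in windows shared with Pigu, led by 0 and 114 against 96 and 149. Gabarapl1 had 0 and 71 in the second pair, against 109 and 133 in the first, and Gabarapl2 had 11 and 83 against 101 and 162. Gabarap was the only gene of the 34 with a G9a region in the second-pair direction alone. Its region, 1602 bp outside the gene and in a window shared with Phf23, had low values of 22 and 89 in the second pair, against 10 and 19 in the first.

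Cargo receptors likewise appeared in the G9a table alone. Sqstm1, which encodes the ubiquitin-binding receptor p62, had 1 region of each direction. The second-pair one had 26 and 232 against 35 and 71, with overlapping values and a difference of -1.0 without library 2 of the second pair. The first-pair one, in a window shared with Mrnip, had 0 and 60 against 82 and 68. Nbr1, a related receptor, had 5 first-pair regions, led by 0 and 61 in the second pair, against 43 and 150 in the first, with overlapping values. Bnip3 and Bnip3l, the mitochondrial receptors of mitophagy, had 2 first-pair regions each. The leading one of Bnip3 had 5 and 59 in the second pair, against 55 and 79 in the first, and that of Bnip3l 36 and 90 against 106 and 118. Of these, the region of Bnip3 had overlapping values and a log2 difference of -0.18 without library 1 of the second pair.

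Among the transcription factors of the pathway, Tfeb, the main activator of lysosomal and autophagy genes (chromosome 17, 47737037 to 47792416), had more second-pair than first-pair G9a regions. There were 5 higher in the second pair, 4 of them within 2500 bp of one of its 3 annotated starts, and 1 higher in the first. The leading one lay 487 bp upstream of a start and had 143 and 165 in the second pair, against 9 and 109 in the first, a log2 difference of 1.37 that was 0.49 without library 1 of the first pair. The one beside it had 85 and 178 in the second pair, against 41 and 83 in the first, also separated; the window of Pgc took in both. The first-pair region of Tfeb had 0 and 173 against 112 and 145, and without library 1 of the second pair its difference turned to 0.43. For H3K9me2, Tfeb had 88 and 17 in the second pair, against 148 and 66 in the first, with overlapping values.

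Foxo1 and Foxo3, forkhead factors that drive autophagy genes in muscle, had H3K9me2 regions of both directions inside the gene. Foxo1 (chromosome 3, 52268337 to 52350109) had its leading H3K9me2 region at 52320001 to 52320800. It had 115 and 198 in the second pair, against 34 and 38 in the first, a log2 difference of 2.09 that stayed between 1.65 and 2.43 without any 1 library. The leading first-pair one, nearer the start, had 19 and 180 in the second pair, against 289 and 156 in the first, with overlapping values. The G9a region over the Foxo1 promoter printed above had 40 and 149 in the second pair, against 30 and 81 in the first, with overlapping values and a log2 difference of 0.76, which was -0.46 without library 2 of the second pair. Near that start, inside the gene, a G9a region of the opposite direction (52269351 to 52269900) had 19 and 75 in the second pair, against 80 and 97 in the first. Its log2 difference was -0.90, or -0.24 without library 1 of the second pair. A G9a region deep in Foxo1 had 0 and 19 in the second pair, against 28 and 89 in the first.

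Foxo3 had 5 first-pair G9a regions and none of the other direction. The leading one lay 995 bp inside its start and had 3 and 83 in the second pair, against 196 and 176 in the first. It had 3 H3K9me2 regions, all separated. The second-pair one had 41 and 104 in the second pair, against 31 and 19 in the first. The first-pair ones had 41 and 0 against 96 and 104, and 89 and 72 against 111 and 126. The log2 difference of the one with a 0 was -2.23, which became -6.66 without library 1 and -1.27 without library 2 of the second pair.

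At the lysosomal end of the pathway few regions were listed. Lamp2, whose product is a membrane protein of lysosomes, had 1 G9a region 2241 bp upstream of its start, with 20 and 75 in the second pair, against 129 and 65 in the first and overlapping values. Rab7, the small GTPase of late endosomes, had 4 first-pair G9a regions, led by 15 and 68 in the second pair, against 94 and 207 in the first. The H3K9me2 region over the Rab7 promoter printed above lay with its nearer edge 81 bp upstream of the start and had 112 and 44 in the second pair, against 78 and 5 in the first. These values overlapped, and the difference was 0 when the lowest value, 5, was left out with its library.

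Seen from the start sites, the 28 genes with an annotated start had a region within 2500 bp of it less often than all genes in most counts. For first-pair G9a and second-pair H3K9me2 regions their share lay near that of all genes. For G9a, 4 of the 28 had a second-pair region there (14.3%, against 33.0% of 17491 genes with a start), Ulk1, Map1lc3b, Tfeb and Foxo1. A first-pair G9a region stood there at 10 (35.7% against 39.4%), Foxo1 again among them. For H3K9me2, 4 had a second-pair region (14.3% against 12.2%), Ulk1, Pik3r4, Atg10 and Rab7, and 1, Atg7, had a first-pair one (3.57% against 15.3%). For H3K27me3, 1 had a second-pair region, Wipi2 (3.57% against 38.2%), and 3 had a first-pair one, Wipi2, Atg7 and Atg10 (10.7% against 32.3%). The start used for Atg7 lies inside the annotated gene. The second-pair H3K27me3 and H3K9me2 regions just outside the annotated 5′ end of Atg7 are therefore not in these counts. Ulk1 was the gene among them with a second-pair region near its start in both the G9a and the H3K9me2 table.

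Regions of different antibodies overlapped at these genes in smaller shares than over the whole tables, a difference that was not tested. Of the 181 G9a regions 8 overlapped an H3K9me2 region (4.42%, against 19.8% of all G9a regions), as did 8 of the 66 H3K9me2 regions a G9a region (12.1% against 31.2%). These made 5 pairs of the same direction and 3 of the opposite, and over all regions listed 56.6% of such pairs shared direction. With H3K27me3, 11 G9a regions overlapped (6.08% against 55.7% of all G9a regions) and 13 of the 42 H3K27me3 regions (31.0% against 35.5%), in 11 pairs of the same and 2 of the opposite direction. The same direction was shared by 62.3% of such pairs over all regions listed. Of the 13 pairs, 6 lay in Atg7. H3K9me2 and H3K27me3 overlapped in 5 pairs, 7.58% of the H3K9me2 regions (52.1% over the whole table) and 11.9% of the H3K27me3 regions (23.2%). All 5 had the same direction, against 54.9% of such pairs over all regions listed, and lay at Ambra1, Atg7 and Pik3c3.

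A second list of 44 other autophagy and lysosome genes, gave shares between those of the 34 genes and those of all protein-coding genes in all 6 counts. A first-pair G9a region stood at 36 of them (81.8%, against 76.7% of all genes) and a second-pair one at 23 (52.3% against 55.5%). For H3K9me2 there were 19 first-pair genes (43.2% against 48.2%) and 16 second-pair genes (36.4% against 38.8%), and for H3K27me3 18 (40.9% against 58.3%) and 11 (25% against 50.5%). The smallest G9a p was at Uvrag, a partner of beclin, with 0 and 34 in the second pair, against 266 and 190 in the first, followed by Atg4c with 4 and 38 against 254 and 98 and by Mtor, the nutrient-sensing kinase that restrains autophagy, with 52 and 6 against 348 and 27. For H3K9me2 it was Bcl2, the beclin-binding survival factor, with 126 and 202 in the second pair, against 48 and 19 in the first, a log2 difference of 2.26. Atg9b followed with 12 and 1 in the second pair, against 63 and 127 in the first, and Rb1cc1, a subunit of the Ulk1 complex, with 29 and 5 against 155 and 81. For H3K27me3 it was Atg4a, with 2658 and 2959 in the second pair, against 1533 and 1436 in the first (0.92), then Bcl2 with 135 and 101 against 314 and 504 and Uvrag with 13 and 25 against 159 and 158. Of these 9 regions, that of Mtor alone was not separated, and its log2 difference of -2.65 turned to 0.10 without library 1 of the first pair.

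The labelled cell type could not be checked by level, since the tables list differing regions only. Of 10 cardiomyocyte markers, 0 had an H3K27me3 region in either direction. A second-pair H3K27me3 region stood at 6 of 6 endothelial, 6 of 6 fibroblast, 5 of 6 leukocyte and 6 of 6 pericyte and smooth muscle markers (50.5% of all genes), and a first-pair one at 5, 4, 5 and 6 of 6 (58.3% of all genes). For G9a, 4 of 10 cardiomyocyte markers had a second-pair and 5 of 10 a first-pair region. In the order above, the other cell types had a second-pair G9a region at 6, 5, 5 and 6 of 6 markers (55.5% of all genes) and a first-pair one at 6, 4, 5 and 6 of 6 (76.7%). For H3K9me2, 2 of 10 cardiomyocyte markers had a second-pair and 1 of 10 a first-pair region, the other types 4, 3, 3 and 4 of 6 (38.8%) and 6, 4, 3 and 4 of 6 (48.2%). Their part in the results at autophagy genes was not tested.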

How the data were processed

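The authors deposited 1 table of differing regions per antibody. The submitters' processing notes name BWA 0.7.10-r789, SAMtools 1.1 and the build mm10 (GRCm38). How regions were called, scaled and corrected for input is, in the sources used here, not given. Column 11 holds 4 whole numbers in 2 pairs and the authors' -log10 p, and per the file contents no condition is named, so the values were neither assigned to samples nor treated as raw read counts. The same pair order was assumed in the 3 tables.

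Genes came from the table of assembly GRCm38.p6, and start sites and promoter sequences from RefSeq windows of the same build. Background shares use the same windows over all 21883 protein-coding genes. The log2 differences and limma 3.58.1 fits (R 4.3.3, log2(value + 1), trend, 1 fit per table, Benjamini-Hochberg over all its regions) were computed here from the deposited values with Python 3.11.15 and were tested on simulated data. edgeR, planned for raw counts, was not run on values of unknown scaling. For each gene, table and direction the leading region is that with the smallest deposited p, and every gene with a region is named with it. The members, lists and rules were chosen with earlier results of these data known. With 2 libraries per pair, the limma p-values set the difference of the pairs against the spread between those libraries. That spread was moderated by a trend over all regions of the table. The deposited p did not always follow the spread between the libraries of a pair. The second-pair G9a region of Ambra1, with 0 and 277 in the second pair, had a deposited -log10 p of 14.1. Its unadjusted limma p was 0.897. A small deposited p therefore need not mean that the libraries of a pair were alike.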

Additional observations from a re-analysis of the deposited data

How the results depend on the processing

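The numbers of autophagy genes with a region, second pair then first pair, were 13 and 31 for G9a, 10 and 11 for H3K9me2 and 5 and 8 for H3K27me3. They stayed within 1.5 times under scaling to equal sums, a mean of at least 20, region midpoints, and without any 1 library. Windows around both gene ends alone gave 8 and 20 for G9a and 5 and 1 for H3K9me2. Gene bodies alone gave 2 and 4 for H3K27me3. A deposited -log10 p of at least 5 gave 3 and 5 for H3K27me3 (8.82% and 14.7%, against 44.9% and 47.6% of all genes). Separated regions alone gave 8 second-pair genes for G9a (23.5%, against 40.6% of all genes). A limma adjusted p under 0.05 left 0 in all 6 counts, and 0.00% of all genes. For the windows of gene ends, for gene bodies alone and for counts without 1 library, the share over all genes is not given here. Without each library in turn, the counts ranged from 9 to 13 and from 30 to 31 for G9a, from 9 to 10 and at 11 for H3K9me2, and from 4 to 5 and at 8 for H3K27me3. Of 78 leading regions, 6 reversed without 1 library. Leaving out each library in turn, the G9a difference ranged from -5.19 to 6.12 at the second-pair region of Ambra1, from -0.46 to 1.62 at Foxo1, from -0.061 to 1.38 at Map1lc3b and from -1.0 to 2.11 at Sqstm1, each lowest without library 2 of the second pair. It ranged from -7.02 to 0.43 at the first-pair region of Tfeb, highest without library 1 of the second pair, and the H3K27me3 difference at Atg2a from -0.14 to 1.87, lowest without library 1 of the first pair. The second-pair differences of G9a at Atg2a and H3K9me2 at Rab7 fell to 0. No leading region reversed with a pseudocount of 10, scaling or the filter on low values. The pseudocount and the filter could not reverse one, since neither changes which pair has the higher mean. The cause of the reversals was not tested. No paired analysis was possible because the columns carry no replicate numbers. No source used here gives depth, and regions that did not differ by the authors' call are outside these tables.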
